A study of Homo sapiens with 9 samples.

Results

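The genes described here are 42 genes of G2 phase and mitosis that p53 is known to lower indirectly, through the CDK inhibitor p21 and the DREAM complex, and the question put to the data was whether they stood higher in cells expressing mutant p53. The rule lists them by name and uses no measured value, although the list was drawn up with earlier results of these data known. All 42 were present among the 78986 genes of the table and were tested in every comparison. RNA-seq was done on 9 libraries from stable HEK293T cells, a human embryonic kidney line that the labels call HEK 293, with 3 biological replicates each of cells expressing wild-type p53 (WT), the G245S mutant or the R273H mutant. All lines were grown in puromycin to keep the lentiviral p53 construct, so that the WT control is itself a p53-expressing line and no line without a construct was analysed here. The cells also carry the SV40 large T antigen, a viral protein that binds p53 and the retinoblastoma family, which limits them as a model of this pathway. Both mutants are single amino acid changes in the DNA-binding domain. No member passed an adjusted p of 0.05 in any comparison, and 4 members, NDC80, HMMR, NUSAP1 and NUF2, were lower at an unadjusted p under 0.05 in the fit of both mutants against WT, beside 3.89% of all tested genes. Each comparison with WT was fitted on WT replicates 1 and 2, because WT replicate 3 held too few counts. The study also excluded a WT replicate, which it does not name, for low reads and poor sample quality. Values of WT replicate 3 given below carry that limit.

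In cells with active p53, p53 induces CDKN1A, the gene for p21, and p21 inhibits the cyclin-dependent kinases that keep the pocket proteins RBL1 (p107) and RBL2 (p130) phosphorylated. Unphosphorylated p130 or p107 then joins E2F4 or E2F5, a DP partner and the MuvB core (LIN9, LIN37, LIN52, LIN54 and RBBP4) to form DREAM, which sits on cell cycle promoters and keeps them silent. In dividing cells the MuvB core leaves the pocket proteins and joins MYBL2 and then FOXM1 to activate the same late genes. LIN54 contacts DNA at the cell cycle homology region (CHR), and the transcription factor NF-Y binds CCAAT boxes nearby.

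The promoters were searched for motifs of this pathway. The members were chosen as genes of the pathway, so a higher share of its motifs among them is not an independent finding. RefSeq start sites on GRCh38.p14 were used for 34 of the 42 members. The promoters of TPX2, AURKA, BUB3, TTK, BIRC5, UBE2C, FOXM1 and RACGAP1 were not used here. In the 250 bases before the start site, on either strand, 18 of the 34 (52.9%) held a CHR, spelled TTTGAA or TTCGAA, against 14.6% of the 27305 promoters in the table. A CCAAT box, spelled CCAAT, was present in 25 of the 34 (73.5%) against 33.0% of all promoters, and 16 members (47.1%) held 2 or more of them against 10.0%. The E2F site, spelled TTTCCCGC or TTTGGCGC, was found in 2 members (5.88%), CENPA and NUSAP1, against 1.96%. A cell cycle dependent element GGCGG placed 4 bases before a CHR occurred in 1 member (2.94%), CKS1B, against 0.0403% of all promoters. Of the 24 CHR matches in members, 17 (70.8%) began within 100 bases of the start site, whereas 31.1% of the 4585 matches over all promoters did, and for CCAAT boxes the shares were 65.5% of 55 and 47.3% of 12995. These matches are letters in a window and do not show that a factor was bound. Bases from the start site onward were not searched, so a member without a match may hold the motif outside the window. CCNB1, CCNA2 and CDC25C were among the members without a CHR in the window.

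The 8 members below were those with a CHR among the genes described library by library, and each line shows the CHR nearest to the start site with its surroundings, read along the gene's strand. Capitals mark matches to either motif on either strand, and a match on the other strand is shown as its reverse complement. In MKI67 and HMMR neighbouring matches overlap or touch.
CDK1 (chr10:60778128-60778187, plus strand): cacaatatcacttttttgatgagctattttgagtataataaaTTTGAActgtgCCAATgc
CDC20 (chr1:43358874-43358933, plus strand): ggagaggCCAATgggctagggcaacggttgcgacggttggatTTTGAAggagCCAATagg
PLK1 (chr16:23678816-23678877, plus strand): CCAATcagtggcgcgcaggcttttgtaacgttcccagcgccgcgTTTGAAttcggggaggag
TOP2A (chr17:40418030-40418090, minus strand): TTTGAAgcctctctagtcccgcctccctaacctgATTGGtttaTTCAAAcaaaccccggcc
HMMR (chr5:163460563-163460627, plus strand): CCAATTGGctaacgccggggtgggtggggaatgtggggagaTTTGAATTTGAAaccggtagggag
MKI67 (chr10:128126435-128126494, minus strand): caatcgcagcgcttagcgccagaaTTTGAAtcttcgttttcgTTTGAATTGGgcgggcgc
CKS1B (chr1:154974609-154974668, plus strand): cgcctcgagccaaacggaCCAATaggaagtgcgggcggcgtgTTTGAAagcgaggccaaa
CKS2 (chr9:89311124-89311183, plus strand): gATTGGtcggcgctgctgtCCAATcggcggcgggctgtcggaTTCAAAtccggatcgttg
In PLK1, MKI67 and CKS2 the nearest CHR began 29 bases before the start site, in CKS1B 30 bases and in HMMR 22 bases, while in CDC20, TOP2A and CDK1 it lay farther out, at 65, 151 and 161 bases.

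**Figure D1:**
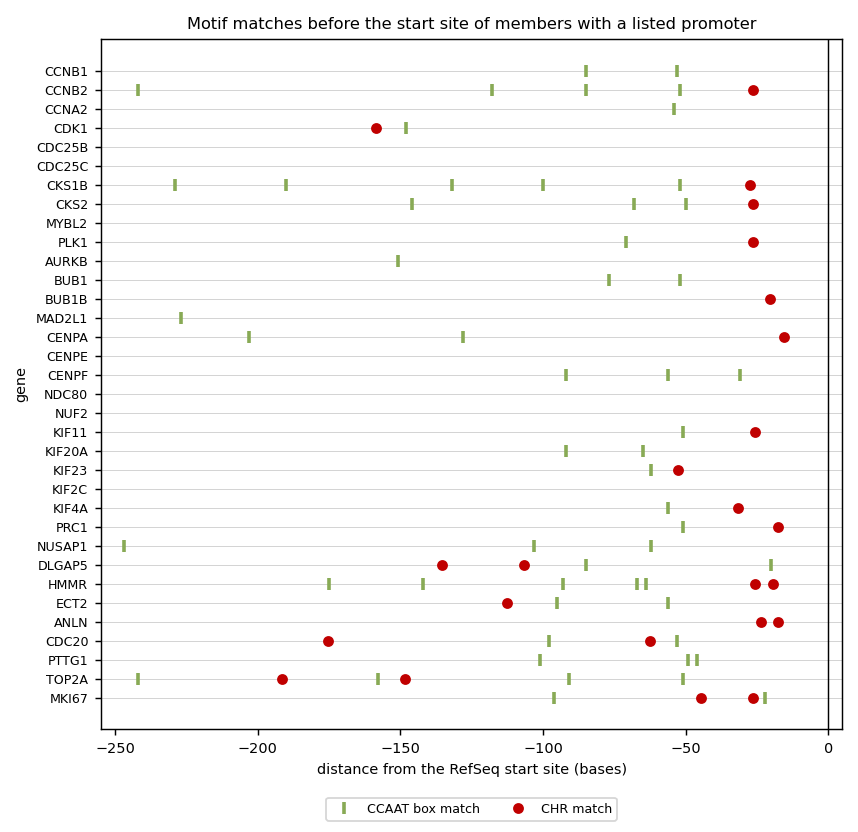
Position of each CHR match (red points) and CCAAT match (green bars) in the 250 bases before the RefSeq start site of the 34 members with a listed promoter, with distance from the start site in bases on the horizontal axis and one gene per row. Of the 24 CHR matches, 17 began within 100 bases of the start site.

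The 8 libraries used in the fits held between 7325514 and 9667306 counts, and WT replicate 3 held 1486315. Values below are CPM, that is, counts rescaled as if each library had the same total, after the TMM method had corrected the totals for differences in composition. The members had between 149 and 3945 counts in each of the 8 libraries, and as few as 29 in WT replicate 3, whose values are given but were not fitted. Together they took 0.526% and 0.528% of the counts in the fitted WT libraries, between 0.515% and 0.569% in G245S and between 0.513% and 0.532% in R273H, with 0.487% in WT replicate 3. Per kilobase of exon, the WT mean ran from 6.88 CPM for KIF23 to 418 CPM for CKS2 with a median of 16.5, and all 42 members lay above the median of all tested genes, 3.19. After CKS2, the highest per kilobase were UBE2C, CDC20, PTTG1, MYBL2 and CCNB1. The line's labelled kind was checked with written marker lists. Of the neuronal and renal genes that HEK293 cells are known to express, NEFM was at 125 to 193 CPM and NEFL at 43.4 to 52.5, while INA reached 11.7 and PAX2 4.87. The epithelial list was mixed, with KRT18 at 58.8 to 161 CPM but EPCAM, CDH1 and KRT19 at medians of 2.02, 1.11 and 0.576. Its 5 genes summed to between 73.4 and 84.6 CPM in the fitted libraries and to 267 in WT replicate 3, where KRT19 reached 33.7. Of the 4 fibroblast markers, the collagens COL1A1 (12.6 to 36.9 CPM) and COL1A2 (9.07 to 54.8) were present, whereas DCN and PDGFRB had medians of 0.128 and 0.461. The fibroblast sum was 34.1 to 52.0 CPM in the fitted WT libraries, 22.1 to 49.2 in G245S, 42.6 to 88.7 in R273H and 87.8 in WT replicate 3. The 3 blood markers summed to at most 3.51 CPM, with CD3E at 0 in every library, and the 3 endothelial markers to at most 0.702. The part of these differences in the members' values was not tested.

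Upstream of the members, CDKN1A was at 14.9 and 18.5 CPM in WT (19.7 in replicate 3), at 7.34, 10.2 and 11.4 in G245S and at 11.9, 14.2 and 11.8 in R273H. Every mutant library lay below every WT library for CDKN1A, although its log2 fold changes of −0.79 in G245S (95% interval −1.17 to −0.41, edgeR's adjusted p = 0.206) and −0.41 in R273H (−0.71 to −0.099, edgeR's adjusted p = 0.685) did not pass an adjusted p of 0.05. It passed in G245S in 2 of 17 alternative fits, without a filter on low counts and with a replicate block. The 12 DREAM and MuvB subunits were all tested and none passed in any comparison by edgeR or DESeq2. At an unadjusted edgeR p under 0.05, 0 were lower in G245S and 1, TFDP1, in R273H, beside 3.3% and 3.33% of all tested genes. By sign, 8 were lower and 4 higher in each mutant, where 49.2% and 49.3% of all tested genes were lower. The medians of the 12 subunits were −0.019 and −0.061 on the log2 scale. TFDP1, a DP partner, had log2 fold changes of −0.19 (−0.40 to 0.018) and −0.20 (−0.39 to −0.00073). LIN54, the subunit that contacts the CHR, had log2 fold changes of 0.23 (−0.079 to 0.55) and 0.21 (−0.080 to 0.49).

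None of the 42 members passed an adjusted p of 0.05 in G245S against WT, in R273H against WT, between the mutants or in the fit of both mutants against WT, by edgeR's quasi-likelihood test or by DESeq2. Among all genes tested by edgeR, 0.126% passed in G245S against WT (20 of 15893), 0.137% in R273H against WT (22 of 16022), 0% in R273H against G245S (0 of 15614) and 0.201% in both mutants against WT (33 of 16398). The lowest edgeR adjusted p of any member was 0.721 in G245S, 0.564 in R273H, 0.994 between the mutants and 0.473 for both mutants together. At an unadjusted p under 0.05, 3 members were lower and 1 higher in G245S, where 3.3% of all tested genes were lower and 3.35% higher. In R273H 4 members were lower and 0 higher, beside 3.33% and 2.78% of all tested genes. Between R273H and G245S 2 members were lower and 0 higher, beside 2.46% and 2.29%. For both mutants against WT 4 were lower and 0 higher, beside 3.89% and 3.01% of all tested genes.

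Given the spread between the fitted libraries, the intervals bound how far the members could have stood above WT. The study's methods describe no separately made lines of the same p53 form, so differences between such lines are not covered. A change of WT libraries is not covered either. Over 17 alternatives the log2 fold change in G245S ran from 0.062 to 0.51 for CKS2 and from −0.37 to −0.21 for NDC80. In G245S, the 95% interval of the log2 fold change lay below a 1.5-fold rise for 41 of the 42 members and below a log2 rise of 0.32 for 35, and the exception to the first was CKS2, whose upper bound was 1.50-fold (0.586 on the log2 scale against 0.585 for 1.5-fold). In R273H it lay below a 1.5-fold rise for 42 and below a log2 rise of 0.32 for 38 members, with the highest upper bound again that of CKS2, at 1.28-fold. For both mutants against WT the counts were 42 and 41. Equally, intervals lay above a 1.5-fold fall for 42 members in each of these comparisons, and above a log2 fall of 0.32 for 33 in G245S, 28 in R273H and 35 in both. The median standard error of a member's log2 fold change was 0.098 in G245S and 0.096 in R273H, against 0.138 and 0.136 for all tested genes.

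The median log2 fold change of the members was −0.0092 in G245S (0.0034 for all tested genes), −0.061 in R273H (0.0023) and −0.031 in both mutants together (−0.0020). By sign, 25 members were lower and 17 higher in G245S, and 29 lower and 13 higher in R273H, where 49.2% and 49.3% of all tested genes were lower. The comparisons with WT share their WT libraries and are not independent. In G245S, 6 members had every mutant library below both fitted WT libraries (10.8% of all tested genes did) and 4 had every one above (11.3%). In R273H the counts were 8 below (10.4%) and 3 above (10.3%), and for R273H against G245S 3 below (4.35%) and 1 above (4.67%). For both mutants against WT, 4 members had every mutant library below both fitted WT libraries (4.58%) and 1 had every one above (4.27%). The median moved with the WT libraries chosen. With all 3 WT libraries it was −0.036 in R273H, and with WT replicates 2 and 3 it was −0.0063.

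**Figure D2:**
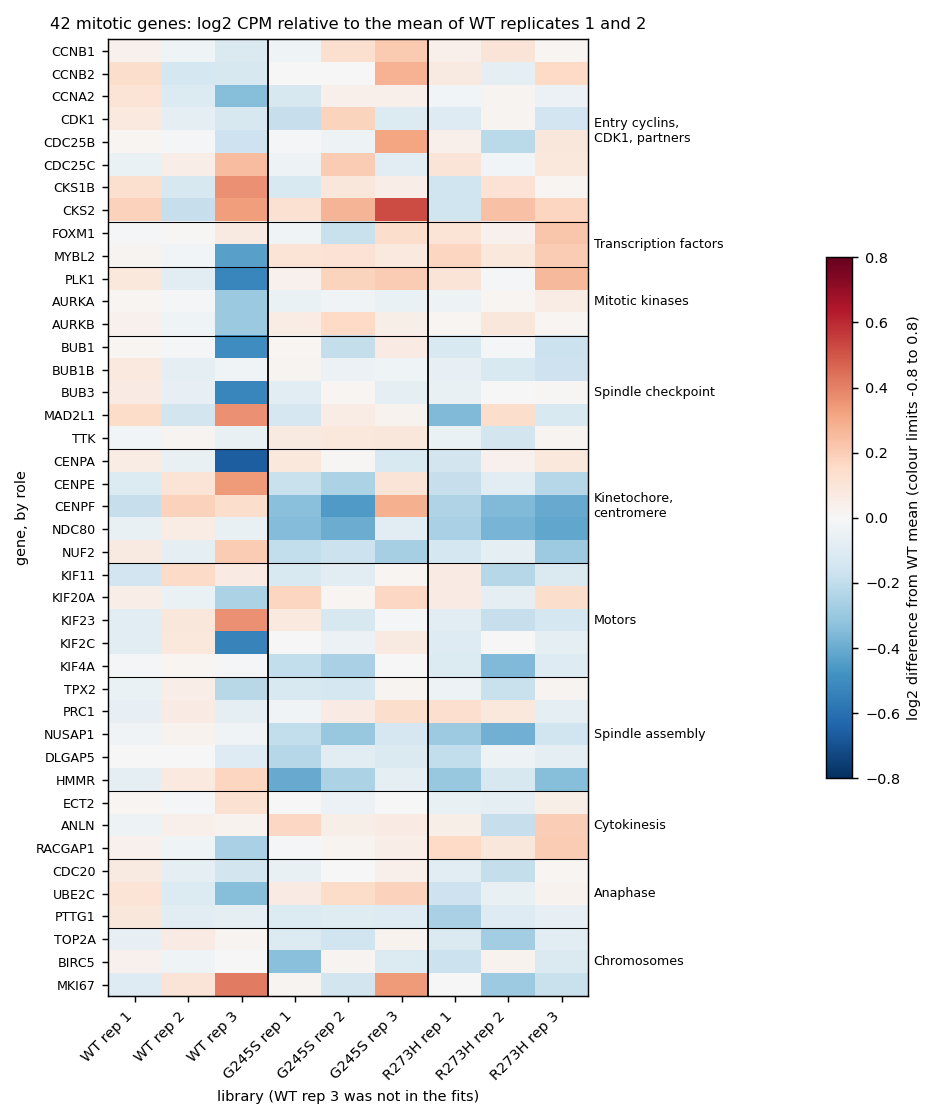
Heat map of the 42 members (rows, grouped by role) in the 9 libraries (columns), coloured by log2 CPM minus the mean of WT replicates 1 and 2, from −0.8 (blue) to 0.8 (red). Most cells are pale. The rows of NDC80, NUF2, NUSAP1, DLGAP5, HMMR, KIF4A and PTTG1 are below 0 in all 6 mutant libraries. The rows of MYBL2 and AURKB are above 0 in all 6. Those of CENPA and PRC1 lie on both sides of 0, and the unfitted WT replicate 3 has the strongest colours of the WT columns.

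Averaged over the 42 members, the log2 level relative to the mean of the fitted WT libraries was 0.011 and −0.011 in WT replicates 1 and 2 and −0.072 in WT replicate 3. It was −0.065, −0.040 and 0.052 in the G245S libraries and −0.071, −0.075 and −0.035 in the R273H libraries. The G245S libraries therefore lay on both sides of WT, with replicate 3 the highest of the 9, while the 3 R273H libraries lay below both fitted WT libraries but overlapped WT replicate 3. The SD of this level was 0.062 over the G245S libraries and 0.022 over the R273H libraries. In whole-culture RNA, fewer cells in G2 and mitosis and less of these mRNAs per cell cannot be told apart.

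**Figure D3:**
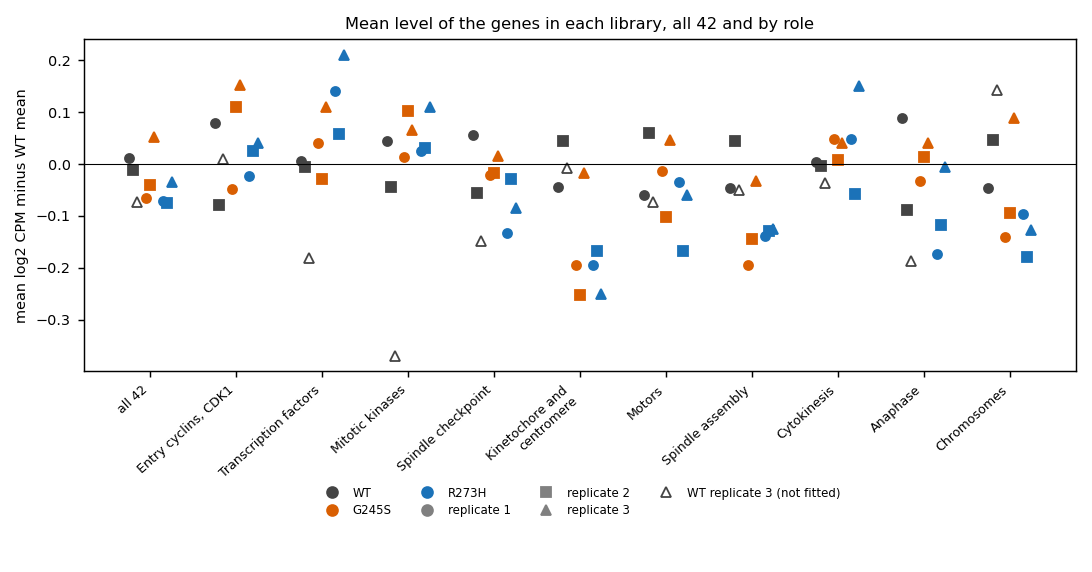
Mean log2 CPM of the members in each library minus the WT mean, for all 42 and for each role group, with WT in grey, G245S in orange and R273H in blue, a symbol shape per replicate and WT replicate 3, which was not fitted, as an open triangle. In R273H the means of the kinetochore, spindle assembly and chromosome groups lie below the fitted WT libraries, and that of the transcription factors lies above them. G245S replicate 3 lies highest of the G245S libraries in most groups.

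The 8 entry cyclins, CDK1 and its partners set off mitosis. CCNB1, the cyclin that activates CDK1 at mitotic entry, was at 238 and 227 CPM in WT, 227, 254 and 269 in G245S and 239, 250.1 and 235 in R273H, with 215 in WT replicate 3. CDK1, the kinase itself, was at 107 and 96.0 in WT, 89.2, 115 and 93.8 in G245S and 94.2, 103 and 91.0 in R273H, with 92.7 in WT replicate 3. For both genes the libraries of the 3 lines overlapped, and the log2 fold changes for CCNB1 were 0.11 in G245S (95% interval −0.099 to 0.32) and 0.055 in R273H (−0.13 to 0.24), and for CDK1 −0.029 (−0.26 to 0.21) and −0.080 (−0.28 to 0.12). CCNA2, the cyclin of S and G2 phase, was at 112 and 96.7 CPM in WT, 95.6, 107 and 107 in G245S and 103, 106 and 101 in R273H, with log2 fold changes of −0.012 (−0.22 to 0.20) and −0.021 (−0.22 to 0.17). CDC25C, the phosphatase that removes the inhibitory phosphates from CDK1, was at 28.5 and 30.6 CPM in WT, 28.7, 34.0 and 27.7 in G245S and 31.7, 29.1 and 31.3 in R273H, with log2 fold changes of 0.035 (−0.21 to 0.28) and 0.060 (−0.16 to 0.28). In each of these genes the libraries of both mutants overlapped the WT range. In WT replicate 3 CCNA2 stood lower, at 82.2 CPM, and CDC25C higher, at 35.1.

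The small CDK-binding proteins CKS1B and CKS2 dock CDKs to phosphorylated substrates. CKS2 was at 290.5 and 224 CPM in WT (322 in replicate 3), 278, 308 and 366 in G245S and 229, 301 and 288 in R273H. G245S replicate 3 was the highest library and the other libraries overlapped across the lines. In G245S its log2 fold change came to 0.31 (standard error 0.13, unadjusted p = 0.0329, edgeR's adjusted p = 0.721), the highest of any member, and 0.081 in R273H (−0.19 to 0.35). With WT replicates 1 and 3 as the control the G245S value was 0.062. CKS1B was at 196 and 164 CPM in WT, 165, 191 and 186 in G245S and 160.3, 194 and 181 in R273H, with log2 fold changes of 0.011 (−0.21 to 0.23) and −0.012 (−0.24 to 0.21), and in WT replicate 3 it was at 231. CKS1B held counts that were not whole in 8 of the 9 libraries, so that part of its reads were shared with other genes. Such a gene could be the pseudogene CKS1BP3, which had between 4.17 and 14.17 counts in the fitted libraries. The remaining members of this group, CCNB2 and CDC25B, had log2 fold changes between −0.017 and 0.10 in the mutants.

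The transcription factors that take over the MuvB core in dividing cells stood slightly above WT in R273H. MYBL2 (B-MYB) was at 335 and 325 CPM in WT, 355, 358 and 348 in G245S and 372, 349 and 379.8 in R273H, and WT replicate 3 was lower still, at 244. All 6 mutant libraries lay above the 3 WT libraries, with log2 fold changes of 0.11 (−0.086 to 0.30, edgeR's adjusted p = 0.879) and 0.15 (−0.039 to 0.35, edgeR's adjusted p = 0.922). FOXM1 was at 65.0 and 66.0 CPM in WT (68.8 in replicate 3), 64.4, 58.0 and 72.4 in G245S and 70.6, 67.1 and 76.3 in R273H. The R273H libraries lay above the fitted WT libraries but not all above replicate 3, and the log2 fold changes were −0.0056 in G245S (−0.22 to 0.21) and 0.13 in R273H (−0.066 to 0.32).

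The mitotic kinases PLK1, AURKA and AURKB drive centrosome maturation, spindle assembly and chromosome attachment. PLK1 was at 149 and 133 CPM in WT, 144, 159 and 162 in G245S and 152, 139.6 and 169 in R273H, with log2 fold changes of 0.14 (−0.062 to 0.34) and 0.12 (−0.093 to 0.33). AURKA was at 109.7 and 107 CPM in WT, 105, 106 and 105 in G245S and 105, 109.8 and 113 in R273H, and AURKB, the kinase of the chromosomal passenger complex, was at 198 and 188 in WT, 201, 216 and 199 in G245S and 195, 206 and 195 in R273H. The G245S libraries were all just below the fitted WT libraries for AURKA and all above them for AURKB, in each case by less than the 95% interval, which ran from −0.22 to 0.14 and from −0.096 to 0.29. In WT replicate 3 the 3 kinases were at 98.3, 88.5 and 157 CPM, the lowest of the 9 libraries for each, and their mean log2 level there was −0.37 relative to the other WT libraries. With all 3 WT libraries the log2 fold change of PLK1 in G245S was 0.25, still without passing.

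The spindle checkpoint holds anaphase back until every kinetochore is attached. Of its 5 genes, 4 were lower by sign in G245S and 5 in R273H, beside 49.2% and 49.3% of all tested genes. The medians were −0.015 and −0.10, with no call. BUB1, a checkpoint kinase, was at 68.1 and 66.9 CPM in WT (47.7 in replicate 3), 68.4, 59.1 and 70.6 in G245S and 62.0, 66.9 and 59.9 in R273H. TTK (MPS1), the kinase that starts checkpoint signalling, was at 43.2 and 44.7 CPM in WT (42.1 in replicate 3), 46.3, 46.5 and 46.9 in G245S and 42.3, 39.6 and 44.7 in R273H. The G245S libraries lay above all 3 WT libraries for TTK and the R273H libraries below all G245S libraries, with a log2 fold change of −0.15 between the mutants (−0.32 to 0.021). BUB1B, BUB3 and MAD2L1 had log2 fold changes between −0.12 and −0.014 against WT.

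Among the 5 kinetochore and centromere genes, NDC80 and NUF2 had every mutant library below every WT library, whereas CENPA was level with WT. Of all tested genes, 4.58% had every mutant library below both fitted WT libraries. The mean log2 level of the group was −0.19, −0.25 and −0.018 in the G245S libraries and −0.19, −0.17 and −0.25 in the R273H libraries, against −0.044 and 0.044 in the fitted WT libraries and −0.0080 in WT replicate 3. All 5 were lower by sign in both mutants, beside 49.2% and 49.3% of all tested genes, with medians of −0.14 and −0.17. However, 0 of 5 passed by edgeR or DESeq2. At an unadjusted edgeR p under 0.05, 2 were lower in each mutant, beside 3.3% and 3.33% of all tested genes. NDC80, which with NUF2 builds the complex that grips spindle microtubules, was at 25.3 and 27.5 CPM in WT (25.3 in replicate 3), 20.7, 20.0 and 24.9 in G245S and 22.0, 20.4 and 19.7 in R273H. All 6 mutant libraries lay below the 3 WT libraries, with the smallest gap for G245S replicate 3. Its log2 fold changes were the lowest of any member, −0.27 in G245S (standard error 0.12, unadjusted p = 0.0466, edgeR's adjusted p = 0.741) and −0.35 in R273H (standard error 0.11, unadjusted p = 0.00745, edgeR's adjusted p = 0.575). Over 17 alternatives they ran from −0.37 to −0.21 and from −0.40 to −0.29. Its partner NUF2 was at 55.7 and 50.6 CPM in WT (61.1 in replicate 3), 46.4, 47.0 and 44.1 in G245S and 48.2, 50.5 and 43.4 in R273H. Again no mutant library reached a WT library, although R273H replicate 2 was all but level with WT replicate 2, and the log2 fold changes were −0.21 (−0.41 to −0.012) and −0.17 (−0.37 to 0.039).

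CENPF, a large protein of the outer kinetochore that accumulates in G2, was at 171 and 220.5 CPM in WT (213 in replicate 3), 154, 141 and 236 in G245S and 164, 152 and 147 in R273H. The R273H libraries were close together and below the WT libraries, whereas G245S replicate 3 was the highest of all 9. Its log2 fold change was −0.14 in G245S (−0.51 to 0.24) and −0.34 in R273H (−0.57 to −0.11, unadjusted p = 0.00703, edgeR's adjusted p = 0.564). The WT libraries differed widely for this gene, and over the alternatives the R273H value ran from −0.51 to −0.14. CENPE, a kinetochore motor, had log2 fold changes of −0.096 and −0.17, and CENPA, the centromeric histone, of −0.00080 and −0.0095.

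The 5 mitotic motors of the kinesin family had log2 fold changes between −0.14 and 0.13 in G245S and between −0.18 and 0.048 in R273H. KIF20A, which works at the central spindle, was at 65.3 and 60.6 CPM in WT (52.7 in replicate 3), 70.9, 63.5 and 70.6 in G245S and 65.9, 59.7 and 69.3 in R273H, with overlap between all lines. KIF4A, a chromosome-bound kinesin, had all R273H libraries below the WT libraries (39.8 to 47.3 CPM against 50.3 to 51.4), with a log2 fold change of −0.18 (−0.39 to 0.031). KIF11, KIF23 and KIF2C overlapped WT in both mutants.

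Among the spindle assembly factors, 4 of 5 were lower by sign in each mutant, beside 49.2% and 49.3% of all tested genes. The medians of these factors were −0.14 and −0.10. Their mean log2 level was −0.20, −0.14 and −0.033 in G245S and −0.14, −0.13 and −0.13 in R273H, against −0.045 and 0.045 in the fitted WT libraries and −0.050 in WT replicate 3. HMMR, a spindle protein that also binds hyaluronan, was at 59.6 and 66.7 CPM in WT (70.9 in replicate 3), 47.6, 53 and 59.7 in G245S and 51.1, 57.6 and 49.7 in R273H. The R273H libraries lay below all WT libraries, and G245S replicate 3 just overlapped WT replicate 1. The log2 fold changes were −0.24 (unadjusted p = 0.0407, edgeR's adjusted p = 0.726) and −0.26 (unadjusted p = 0.0173, edgeR's adjusted p = 0.716). NUSAP1, a microtubule-bundling protein, was at 37.9 and 39.3 CPM in WT (37.9 in replicate 3), 33.6, 31.2 and 35.2 in G245S and 31.6, 29.5 and 34.6 in R273H. No mutant library overlapped a WT library for NUSAP1, and the log2 fold changes were −0.20 (−0.41 to 0.0067, edgeR's adjusted p = 0.757) and −0.27 (−0.49 to −0.056, edgeR's adjusted p = 0.715). DLGAP5 was below both fitted WT libraries in all 6 mutant libraries (65.0 to 73.9 CPM against 76.1 and 76.3), but WT replicate 3 was at 70.9. TPX2 and PRC1 had log2 fold changes between −0.071 and 0.066.

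**Figure D4:**
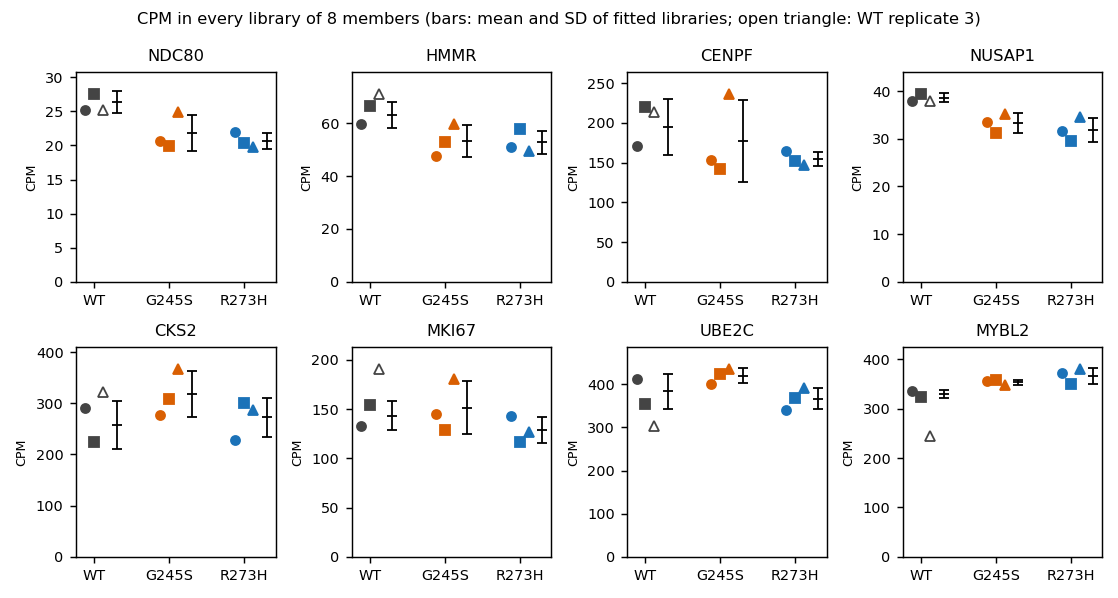
CPM in each library (vertical axes start at 0) of NDC80, HMMR, CENPF, NUSAP1, CKS2, MKI67, UBE2C and MYBL2, by line, with symbols per replicate, an open triangle for the unfitted WT replicate 3, and the mean and SD of the fitted libraries beside the points. NDC80 and NUSAP1 have all mutant libraries below all WT libraries and MYBL2 has all above, while CENPF and MKI67 have G245S replicate 3 (236 and 181 CPM) well above the other G245S libraries.

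In the cytokinesis group, RACGAP1, a subunit of the centralspindlin complex, was at 49.1 and 46.8 CPM in WT (40.03 in replicate 3), 47.3, 48.6 and 49.6 in G245S and 53.5, 51.1 and 55.2 in R273H. The R273H libraries lay above every other library, with log2 fold changes of 0.15 against WT (−0.037 to 0.34, edgeR's adjusted p = 0.922) and 0.13 against G245S (−0.031 to 0.29, edgeR's adjusted p = 0.994). ANLN, an actin-binding protein of the contractile ring, was above all WT libraries in G245S (55.7 to 60.3 CPM against 52.4 to 55.2) and overlapped WT in R273H. ECT2, which activates RhoA at the cleavage furrow, had log2 fold changes of −0.0073 and −0.028.

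Of the 3 anaphase genes, PTTG1 restrains separase, and CDC20 and UBE2C work with the anaphase-promoting complex. CDC20, its mitotic activator, was at 357 and 324 CPM in WT (308 in replicate 3), 327, 339 and 351 in G245S and 319, 298 and 344 in R273H. UBE2C, its E2 enzyme, was at 413 and 356 CPM in WT (303 in replicate 3), 402, 424 and 435 in G245S and 341, 368 and 391 in R273H. For UBE2C the R273H libraries lay below every G245S library, with a log2 fold change of −0.20 between the mutants (−0.38 to −0.033, unadjusted p = 0.0225, edgeR's adjusted p = 0.994), but both mutants overlapped WT. The pseudogenes CDC20P1 (46.75 to 76.25 counts in the fitted libraries) and UBE2CP5 (3.75 to 12 counts) were listed as well and could have taken a small share of these reads. PTTG1 (securin), the inhibitor of separase, was at 255 and 226 CPM in WT (228 in replicate 3), 223, 225 and 224 in G245S and 201, 224 and 230.1 in R273H. Its G245S libraries lay just below the WT libraries, with log2 fold changes of −0.099 (−0.30 to 0.098) and −0.14 (−0.35 to 0.065).

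The remaining members act on chromosomes. TOP2A, the topoisomerase that untangles sister DNA, was at 279 and 305 CPM in WT (296 in replicate 3), 271, 261 and 298 in G245S and 269, 240.1 and 274 in R273H. Its R273H libraries were below all WT libraries, with a log2 fold change of −0.16 (−0.36 to 0.045). BIRC5 (survivin), a chromosomal passenger protein, was at 282 and 269.5 CPM in WT (275 in replicate 3), 219, 280.0 and 256 in G245S and 245, 281 and 254 in R273H, with overlap and log2 fold changes of −0.13 (−0.36 to 0.10) and −0.083 (−0.28 to 0.12). MKI67, the Ki-67 proliferation antigen that coats mitotic chromosomes, was at 133 and 154 CPM in WT (190.3 in replicate 3), 145, 129 and 181 in G245S and 142, 117 and 126 in R273H. WT replicate 3 and G245S replicate 3 were the highest libraries. MKI67 had the lowest log2 fold change between the mutants, −0.24 (−0.48 to −0.0070, unadjusted p = 0.0444, edgeR's adjusted p = 0.994), and 0.090 and −0.15 against WT.

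**Figure D5:**
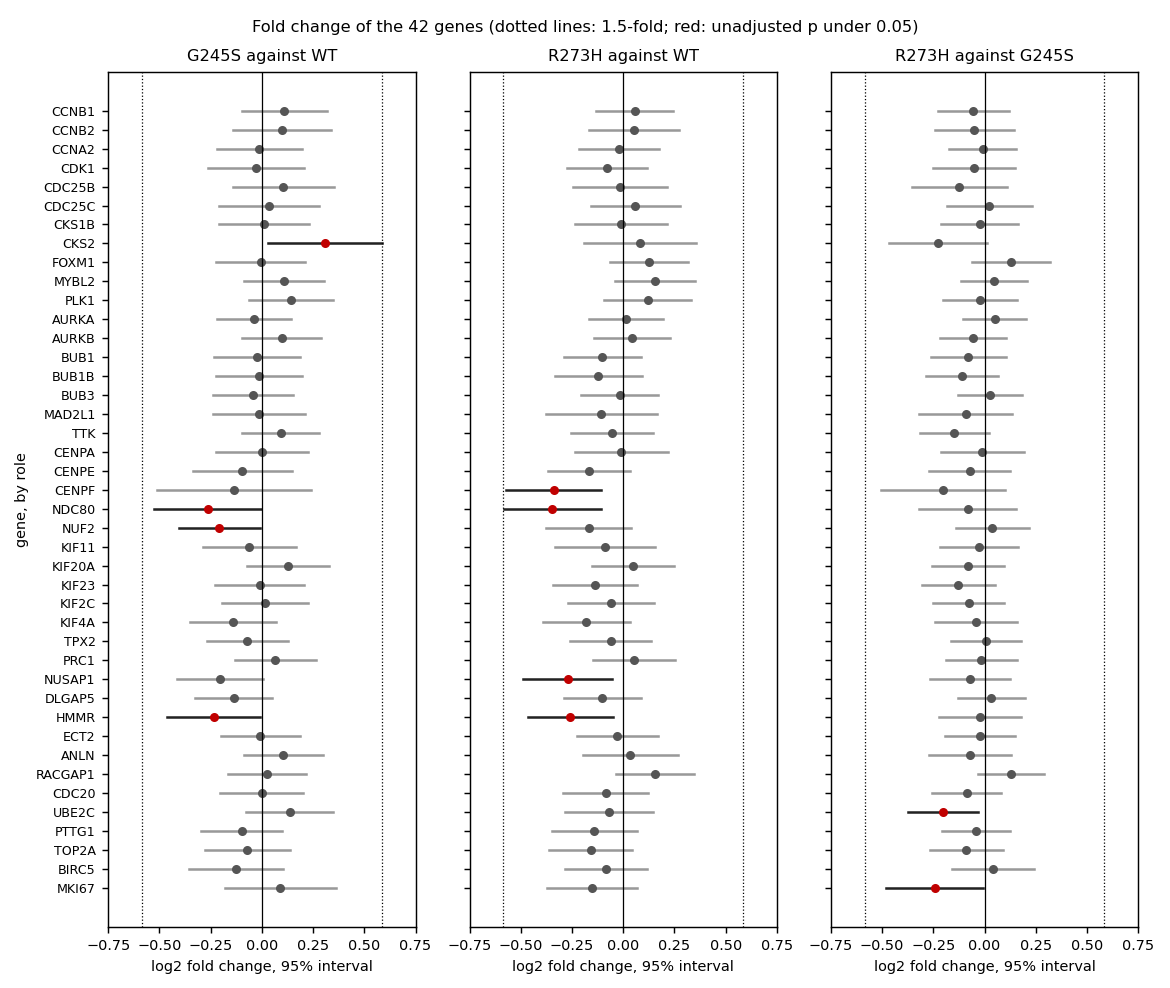
Log2 fold change of the 42 members (points) with its 95% interval (lines) for G245S against WT, R273H against WT and R273H against G245S, with dotted lines at 1.5-fold and red points where the unadjusted p was under 0.05. Intervals lie inside the 1.5-fold lines apart from the upper bound of CKS2 in G245S, and none of the red points passes the adjusted threshold.

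Between the mutants themselves, the median of the members for R273H against G245S was −0.051 (−0.0048 for all tested genes), with 32 members lower and 10 higher by sign, while 51.7% of all tested genes were lower. The values ran from −0.24 for MKI67 to 0.13 for RACGAP1 and FOXM1, and intervals lay below a log2 rise of 0.32 for all 42 members and above a log2 fall of 0.32 for 37. Without G245S replicate 3, 23 of the 42 were lower by sign and the median was −0.0020. The pattern of members over the 8 fitted libraries was loose. Pearson's r between a member and the mean of the other members had a median of 0.36 (0.0068 for the other 16356 tested genes), 14 members (33.3%) had r over 0.5 against 10.0% of the other genes, and 10 were under 0. The points are libraries that share depth and composition, so these values are a description. The highest r were those of CDC20, TOP2A, CDC25B and KIF4A, at 0.70 to 0.72, and the lowest were those of MYBL2 and CDC25C, at −0.49 and −0.47. The mean level of the members had r = 0.29 with CDKN1A and −0.052 with library size over these 8 libraries.

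The WT libraries differed with transcript length. Over the 42 members, Spearman's rho between exon length and the log2 difference of WT replicate 1 minus WT replicate 2 was −0.58, against −0.13 over all tested genes. Short members thus tended to be higher in replicate 1 and long members in replicate 2, as for CKS2, with a difference of 0.37. Between exon length and the log2 fold change rho was −0.22 in G245S and −0.30 in R273H. Its part in the results above was not tested. Among the 34 members with a promoter, those with and without a CHR match in the searched window had median log2 fold changes close to each other, −0.0041 (18 genes) and −0.014 (16 genes) in G245S and −0.083 and −0.081 in R273H. Members without a match there may hold a CHR elsewhere.

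Other genes of the pathway were counted from written lists. Of 40 further G2 and mitosis genes, 0 passed in either mutant by edgeR or DESeq2, with 4 in G245S and 6 in R273H lower and 0 higher at an unadjusted p under 0.05, beside 3.3% and 3.33% of all tested genes lower. Their median log2 fold changes were −0.078 in G245S (29 lower by sign) and −0.10 in R273H (32 lower), where 49.2% and 49.3% of all tested genes were lower. Of 20 G1/S genes that DREAM also binds, 0 passed in either mutant by edgeR and 1 in R273H by DESeq2, with 4 and 3 lower and 0 higher at an unadjusted p under 0.05 in edgeR, against the same shares of all genes, and the medians were −0.11 (17 lower by sign) and −0.13 (18 lower). The gene called by DESeq2 in R273H was TYMS, and in the fit of both mutants DESeq2 called 2 genes of this list, TYMS and PCNA, both named here after their values were seen. DESeq2 called 23 and 33 genes in all in these comparisons. PCNA, the sliding clamp of DNA polymerases, was at 407 and 355 CPM in WT (357 in replicate 3), 281, 307 and 285 in G245S and 293, 329 and 315 in R273H. All 6 mutant libraries lay below the 3 WT libraries, and its log2 fold change for both mutants was −0.34 (−0.51 to −0.16, edgeR's adjusted p = 0.171). By the fitted libraries, 4.58% of all tested genes had every mutant library below WT. TYMS, thymidylate synthase, which makes dTMP for DNA synthesis, was at 142 and 132 CPM in WT (126 in replicate 3), 97.7, 108 and 103 in G245S and 103, 100.0 and 99.7 in R273H. All mutant libraries lay below all WT libraries, and in the fit of both mutants against WT its log2 fold change of −0.43 (standard error 0.074) passed with edgeR's adjusted p = 0.0141, the only call by edgeR in these lists. It passed in 13 of 18 alternatives, and without WT replicate 1 edgeR's adjusted p was 0.314, without WT replicate 2 it was 0.0916 and with a replicate block 0.0559. The edgeR adjusted p was 0.200 when the WT libraries were replicates 1 and 3, and 0.146 when they were replicates 2 and 3.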

How the data were processed

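Per the labels and the study's methods, RNA from each line was sequenced by a commercial service, and the authors filtered reads with fastp 0.24.0, aligned them to GRCh38 with STAR 2.7.11, removed duplicates by molecular identifier and counted reads per gene with featureCounts (Subread 2.1.1), strand-specifically and with multi-mapping reads shared as fractions. FastQC 0.12.1, SAMtools 1.22.1 and MultiQC 1.32 are also named in the submitters' processing notes. The values the authors deposited are expected counts without normalization, and 9 further columns of per-sample values in the table were not used. Members shared reads between genes in 26 of 42 cases, where a count was not whole in at least 1 library.

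Counts were rounded. WT replicate 3 was left out by depth, since it held fewer than 4096044 counts (the limit was 0.5 of the median total over the remaining 8). The study's methods do not say which WT replicate was excluded there for low reads and poor quality. Genes were filtered with filterByExpr, scaled with TMM and tested in edgeR 4.0.16 under R 4.3.3 by its quasi-likelihood test, with Benjamini-Hochberg adjustment over all genes tested and a threshold of 0.05. Intervals are 95%. Mean CPM levels on the log2 scale used a prior count of 2. Alternatives were DESeq2 1.42.0, other scalings and filters, other WT libraries (the pairs with replicate 3 were chosen after seeing the data), a replicate block and leaving out each library. The pipeline was tested on simulated data. Molecular identifiers were used, and the depth behind each value is its count.

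The 42 members and the lists were chosen with earlier results of these data known. Library values are given for a written list of 22 members covering all roles and for the 3 lowest and 3 highest in each of the 3 comparisons, and other members by their log2 fold changes or ranges. Promoter sequences are those of RefSeq (GRCh38.p14), equal to the genome for all 34 matched members. Amino acid sequences were not used here. The level of 1 upstream gene is not reported here.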

Additional observations from a re-analysis of the deposited data

How the results depend on the processing

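The count of members past an adjusted p of 0.05 was 0 under every alternative run, 17 for each mutant against WT, 15 for R273H against G245S and 18 for both mutants against WT. The members' median log2 fold change ran from −0.024 to 0.048 in G245S, from −0.065 to −0.0020 between the mutants and from −0.042 to 0.021 for both mutants. In R273H it was −0.036 with all 3 WT libraries, −0.014 with WT replicates 1 and 3 and −0.0063 with WT replicates 2 and 3, and from −0.078 to −0.012 when 1 library was left out, with the value nearest to 0 without WT replicate 1. Relative to the median of all tested genes, the R273H values were −0.036, −0.019 and −0.0049, and from −0.087 to −0.017 when 1 library was left out. For both mutants with WT replicates 2 and 3 the median was 0.021, and 0.025 relative to all tested genes. The cause was not tested, beyond the change of WT libraries itself.

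The labels do not say that equal replicate numbers mark a shared culture or day. Libraries were correlated by their deviations from the mean of their own line, over all tested genes. Same-numbered libraries of G245S and R273H had correlations of 0.11, 0.26 and −0.032, and differently numbered pairs of these mutants from −0.25 to 0.17. Same-numbered pairs with WT had 0.039 and −0.075 for G245S and −0.13 and 0.055 for R273H. Only WT replicates 1 and 2 were fitted, so their deviations mirror each other. For any mutant library, the correlation with WT replicate 1 is minus that with WT replicate 2, which makes these pairs a weak check. With a replicate block 0 members passed, the medians were −0.020 in G245S, −0.069 in R273H and −0.047 between the mutants, and 76, 47 and 59 genes of all those tested were called, against 20, 22 and 0 without it. Without a filter on low counts 144, 93 and 125 genes were called in these comparisons, with WT replicates 1 and 3 the counts were 3 in G245S and 4 in R273H, and with all 3 WT libraries 10 in G245S. Without G245S replicate 3 10 genes were called in G245S. Every member had at least 149 counts in each fitted library, and depth limits WT replicate 3, where the lowest member had 29.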
